A study of Mus musculus with 30 samples.

Results

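The early inflammatory mediators described here are 10 genes, chosen by name from the 55416 genes counted in mouse fracture callus: the interleukin-1 genes *Il1b*, *Il1rn* and *Il1r2*, the cytokines *Il6*, *Tnf* and *Il10*, and the enzymes *Acod1*, *Nos2*, *Arg1* and *Ptgs2*. All 10 were found, and all 10 passed the filter on low counts in every comparison. Tissue labelled fracture callus was taken at 3, 6, 10 and 14 days post-fracture (dpf) after a non-stabilized closed tibial fracture in young adult mice, for which a range of weeks and no individual ages are given. At 3-dpf it was the broken tibia cut out around the fracture, so tissue other than callus may be included. In P-Apex1KO mice (Apex1 KO in the labels), *Prrx1*-Cre deletes both conditional *Apex1* alleles in limb bud mesenchyme and its descendants, so callus cells of other origin, leukocytes among them, keep the gene. The WT littermates carried the conditional allele too, in 1 or both copies without Cre or in 1 copy with it. There were 4 WT and 4 P-Apex1KO mice at 3-dpf, 5 and 3 at 6-dpf, 4 and 3 at 10-dpf, and 4 and 3 at 14-dpf, each mouse giving 1 library. Both sexes were present in every group except the P-Apex1KO mice at 14-dpf, which were all female, while 1 of the 4 WT mice of that day was. All mice had isoflurane anesthesia for the fracture and buprenorphine against pain. The labels number the replicates without naming the mouse. Each was taken as a separate mouse, so each p-value measures the spread between mice of a group. All 10 are protein-coding, and on GRCm39 the gene bodies counted were *Il1b* (ENSMUSG00000027398) chr2:129206490-129213059, *Il1rn* (ENSMUSG00000026981) chr2:24226865-24241506, *Il1r2* (ENSMUSG00000026073) chr1:40113239-40164391, *Il6* (ENSMUSG00000025746) chr5:30218112-30224979, *Tnf* (ENSMUSG00000024401) chr17:35418357-35420983, *Acod1* (ENSMUSG00000022126) chr14:103284413-103294009, *Nos2* (ENSMUSG00000020826) chr11:78811613-78851080, *Arg1* (ENSMUSG00000019987) chr10:24791118-24803817, *Ptgs2* (ENSMUSG00000032487) chr1:149975194-149983978 and *Il10* (ENSMUSG00000016529) chr1:130947581-130952711.

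Libraries held between 18334389 and 43111491 reads on genes. *Apex1*, the deleted gene, had 30.3 ± 2.86 CPM (reads scaled to a common library total) in the 4 WT mice of 3-dpf (mean ± SD). The 4 libraries labelled P-Apex1KO at that day had 27.4 ± 6.71 CPM and overlapped with WT. Replicate 1 had 18.4 CPM, below the WT range of 26.5 to 33.1 CPM, and the other 3 had 27.6 to 34.6 CPM. *Apex1* was lower in P-Apex1KO at 6-dpf (log2 fold change -0.67, standard error 0.11, edgeR adjusted p = 0.0071) and at 10-dpf (-0.65, standard error 0.13, adjusted p = 0.0278), and the difference at 14-dpf did not pass (-0.29, standard error 0.19, adjusted p = 0.367). At 14-dpf its levels still did not overlap, at 14.2 to 18.6 CPM in P-Apex1KO and 19.8 to 27.2 CPM in WT, as for 42% of all genes. The sex term there sets the P-Apex1KO mice, all female, against the single WT female, which had the lowest WT level, 19.8 CPM. Because of the overlap at 3-dpf, the level of *Apex1* does not check the genotype labels of that day. Of the libraries labelled P-Apex1KO at 3-dpf, replicate 1 stood apart: its 14 neutrophil markers summed to 1356 CPM, against 6073 to 10010 CPM in the other 3 and 3885 to 5999 CPM in WT. For the 10 members, values without it stand beside the genotype differences at 3-dpf and the change to 6-dpf in P-Apex1KO. For P-Apex1KO at 3-dpf, those values rest on the libraries whose *Apex1* was not below the WT range.

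Interleukin-1 beta is made by activated macrophages and neutrophils as an inactive precursor that caspase-1 cleaves, and it acts through the type I receptor. Its action is limited by *Il1rn*, which encodes the receptor antagonist, and by *Il1r2*, a decoy receptor that binds the ligand without signaling. Interleukin-6 and tumor necrosis factor are cytokines of the first wave after injury, and interleukin-10 is the classical anti-inflammatory cytokine. *Acod1* makes itaconate in activated macrophages, *Nos2* and *Arg1* compete for arginine to make nitric oxide or ornithine, and *Ptgs2* (COX-2) makes the prostaglandin precursor and is also expressed by skeletal cells during fracture repair. In a fracture, a short inflammatory phase of this kind precedes the formation of cartilage and bone.

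Promoter sequence is shown for 4 of the members, so that the start-proximal elements can be read beside the levels. The windows run from 250 bases before to 50 bases after a RefSeq start on the coding strand, and were taken from a RefSeq table on GRCm38.p6. An exact search of each window found 1 match in GRCm39, the build of the count table, and those coordinates are given: chr5:30217862-30218161 for *Il6* (plus strand), chr2:129213010-129213309 for *Il1b* (minus strand), chr14:103284198-103284497 for *Acod1* (plus strand) and chr1:149975532-149975831 for *Ptgs2* (plus strand). The RefSeq start of *Ptgs2* lies 588 bases downstream of its GENCODE gene start, so its window lies inside the gene body given above. That of *Acod1* lies 35 bases downstream, and those of *Il6* and *Il1b* 0. Capitals mark matches, on either strand, to the kappaB consensus, AP-1 (TGANTCA), C/EBP (TTGCNNAA), the cyclic AMP element (TGACGTCA) or a TATA box (TATAAA).
Il6: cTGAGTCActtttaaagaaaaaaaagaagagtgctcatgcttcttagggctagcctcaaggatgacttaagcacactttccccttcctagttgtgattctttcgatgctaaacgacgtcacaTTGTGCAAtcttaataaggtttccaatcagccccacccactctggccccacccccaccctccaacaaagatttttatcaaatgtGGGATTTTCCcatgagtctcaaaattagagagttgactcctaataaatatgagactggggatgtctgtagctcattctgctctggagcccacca
Il1b: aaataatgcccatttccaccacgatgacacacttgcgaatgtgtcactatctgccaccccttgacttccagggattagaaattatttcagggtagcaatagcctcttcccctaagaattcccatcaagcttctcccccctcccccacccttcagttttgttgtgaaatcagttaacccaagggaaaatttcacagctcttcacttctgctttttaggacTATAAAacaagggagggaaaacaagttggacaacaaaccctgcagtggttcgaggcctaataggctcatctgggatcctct
Acod1: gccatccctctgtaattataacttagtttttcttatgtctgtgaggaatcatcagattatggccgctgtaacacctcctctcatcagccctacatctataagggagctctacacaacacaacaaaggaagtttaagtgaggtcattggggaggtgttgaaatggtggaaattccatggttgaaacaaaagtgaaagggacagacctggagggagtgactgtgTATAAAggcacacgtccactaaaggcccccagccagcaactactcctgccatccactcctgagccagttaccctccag
Ptgs2: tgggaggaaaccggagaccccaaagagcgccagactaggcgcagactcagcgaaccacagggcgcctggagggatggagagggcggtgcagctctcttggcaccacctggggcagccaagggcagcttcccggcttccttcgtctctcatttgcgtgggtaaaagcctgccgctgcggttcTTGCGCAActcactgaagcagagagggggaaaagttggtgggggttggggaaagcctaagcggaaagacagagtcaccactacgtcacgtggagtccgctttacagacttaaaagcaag
The *Il6* window held the kappaB match GGGATTTTCC from -44 to -35 relative to the start, the C/EBP match TTGTGCAA from -128 to -121 and the AP-1 match TGAGTCA from -249 to -243. *Il1b* and *Acod1* each held a TATA box, from -31 to -26 and from -28 to -23, and *Ptgs2* held the C/EBP match TTGCGCAA from -69 to -62. No 2 matches overlapped. The table held 9 windows for 7 members (*Il1b*, *Il1rn*, *Il1r2*, *Il6*, *Tnf*, *Acod1* and *Ptgs2*). Of these 9, 1 held a kappaB match, 2 AP-1, 2 C/EBP, 0 the cyclic AMP element and 4 a TATA box, and among all 32851 RefSeq windows the shares were 8.46%, 7.81%, 10.8%, 1.79% and 13.6%. A match is a description of the letters, and no binding was measured.

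Compared per kilobase of exon, so that genes of different length can be set side by side, the order of the mean levels differed between days. In WT at 3-dpf *Il1b* had 33.2 ± 6.41 CPM per kb, *Arg1* 24.8 ± 14.0 and *Ptgs2* 23.6 ± 3.38 (SD, n = 4), and these 3 neighbours overlapped. A gap followed, with *Il1r2* at 5.85 ± 1.42, *Il1rn* at 5.11 ± 0.33 and *Il6* at 4.21 ± 0.776 CPM per kb, which overlapped as well. *Tnf* (2.21 ± 0.27), *Nos2* (0.928 ± 0.184), *Acod1* (0.646 ± 0.194) and *Il10* (0.446 ± 0.257) were the lowest. At 6-, 10- and 14-dpf *Ptgs2* had the highest mean of the 10 in both genotypes, at 46.1 ± 9.17 CPM per kb in WT (SD, n = 5) and 21.4 ± 4.55 in P-Apex1KO (SD, n = 3) at 6-dpf. *Arg1* had the lowest mean at 14-dpf, with 0.231 ± 0.168 CPM per kb in WT (SD, n = 4) and 0.192 ± 0.151 in P-Apex1KO (SD, n = 3). Counts behind the scarce members were few, 3 to 56 per library for *Il10* and 4 to 31 for *Arg1* at 10- and 14-dpf, so their values carry counting error.

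**Figure D1:**
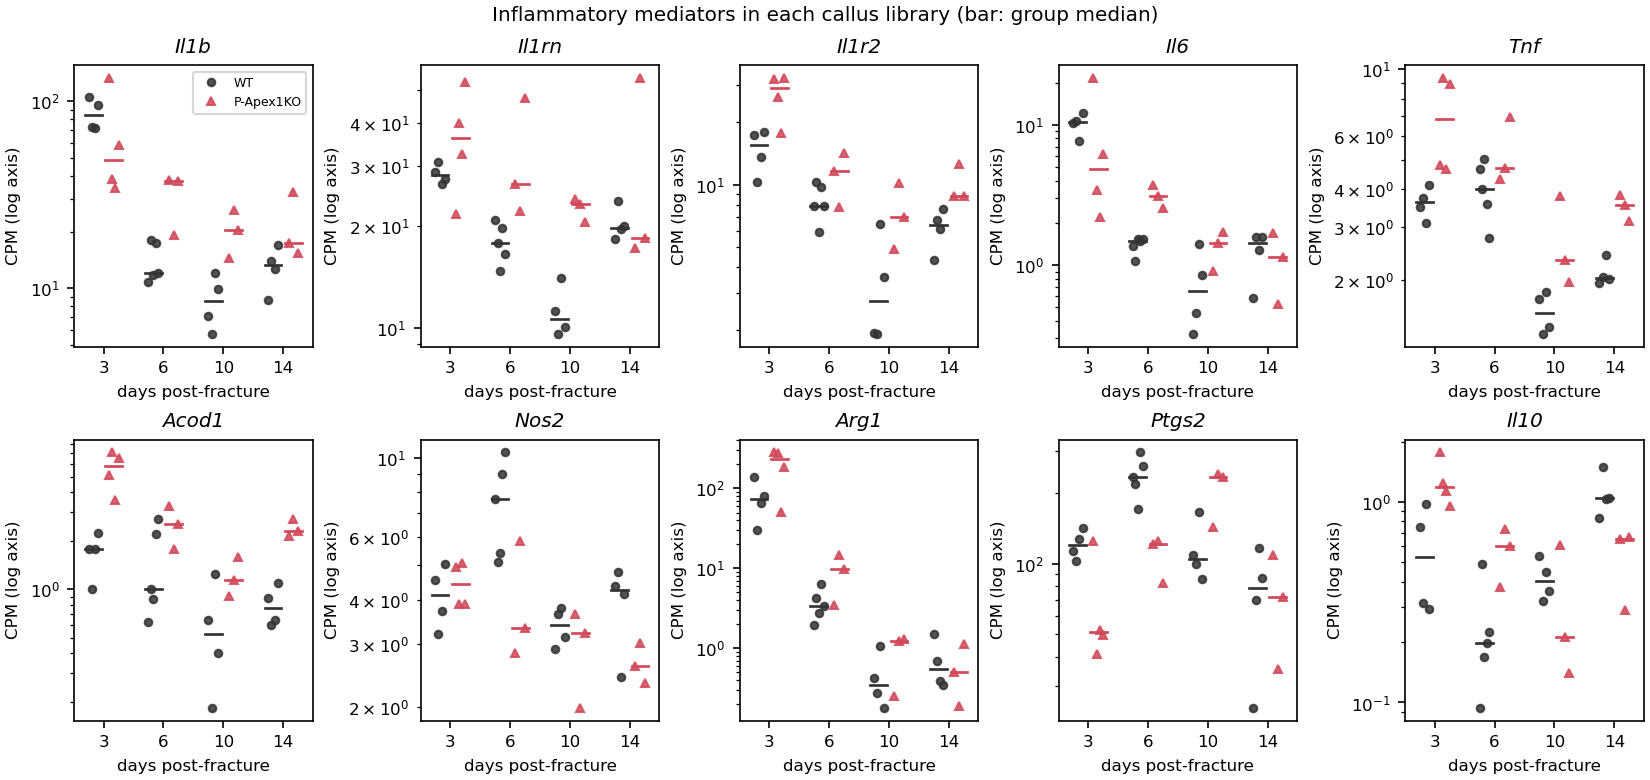
Level of each mediator (CPM, log axis) against days post-fracture, with 1 point per library, WT as dark circles and P-Apex1KO as red triangles, and a bar at the group median; the sideways offset of points has no meaning. *Arg1*, *Il1b* and *Il6* have their highest group medians at 3-dpf in both genotypes, but in P-Apex1KO the *Il1b* and *Il6* libraries of 3- and 6-dpf overlap. The *Ptgs2* libraries of P-Apex1KO lie below WT at 6-dpf and 2 of 3 lie above the WT range at 10-dpf.

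The change from 3- to 6-dpf asks how far the mediators subside as inflammation gives way to repair. In WT callus, 8 of the 10 members passed the test, 6 lower and 2 higher at 6-dpf, where 30.5% of the 20468 genes tested passed in either direction. The median log2 fold change of the members was -0.74, against -0.03 over all genes. *Il1b* stood at 105, 73.0, 71.7 and 96.0 CPM in the 4 WT mice at 3-dpf and between 10.8 and 18.2 CPM in the 5 at 6-dpf. The groups did not overlap, and *Il1b* fell by 2.62 on the log2 scale, a 6.14-fold lower level (standard error 0.34, edgeR adjusted p = 7.96e-05). *Il6* had 10.4, 10.6, 7.68 and 12.2 CPM at 3-dpf and 1.07 to 1.53 CPM at 6-dpf, again without overlap, and fell by 2.85 (standard error 0.52, adjusted p = 0.000932). *Arg1* ranged from 30.6 to 138 CPM at 3-dpf and from 1.94 to 6.41 CPM at 6-dpf, and fell by 4.27, or 19.3-fold (standard error 0.33, adjusted p = 1.09e-06). *Arg1* had the largest change of the 10 members in this comparison.

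The regulators of interleukin-1 moved less than the ligand. *Il1r2* fell by 0.80 (standard error 0.18, adjusted p = 0.00304), from 10.3 to 17.9 CPM at 3-dpf to 5.90 to 10.2 CPM at 6-dpf, narrowly without overlap. *Il1rn* fell by 0.68 (standard error 0.24, adjusted p = 0.0433), from 26.4 to 30.7 CPM to 14.8 to 20.7 CPM. *Il10* fell by 1.35 (standard error 0.46, adjusted p = 0.0349), with overlapping groups. *Nos2* and *Ptgs2* rose. *Nos2* went from 3.20 to 5.03 CPM to 5.11 to 10.4 CPM (log2 fold change 0.85, standard error 0.25, adjusted p = 0.0161), and *Ptgs2* from 102 to 142 CPM to 171 to 298 CPM (0.94, standard error 0.29, adjusted p = 0.0231). *Tnf* (0.15, standard error 0.24, adjusted p = 0.679) and *Acod1* (-0.20, standard error 0.39, adjusted p = 0.74) overlapped between the days. The calls of *Il1b*, *Il6*, *Il1r2* and *Arg1* held in every fit that left out 1 library. That of *Il1rn* was lost in 12 of 16 such fits (adjusted p up to 0.121), among them each fit without a WT library of either day. *Il10* lost its call without WT 3-dpf replicates 1 or 3 and WT 6-dpf replicates 1, 3, 4 or 5 (up to 0.189, log2 fold change -0.83 without WT 3-dpf replicate 3), *Ptgs2* without WT 3-dpf replicates 1 or 2 and WT 6-dpf replicate 4 (up to 0.0683), and *Nos2* without WT 3-dpf replicates 2 or 3 (up to 0.0647). With the replicate number in the model in place of sex, 5 of the 10 passed.

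In P-Apex1KO callus, 2 members passed the test from 3- to 6-dpf, both lower, where 14% of all genes did in either direction. DESeq2 called 3 members, with *Il1b* as the third (-0.919, adjusted p = 0.0487), where it called 17.8% of the genes given an adjusted p. *Arg1* had 283, 277, 50.03 and 184 CPM in the 4 libraries labelled P-Apex1KO at 3-dpf and 3.52, 14.8 and 9.72 CPM at 6-dpf, and fell by 4.25, or 19.1-fold (standard error 0.40, adjusted p = 3.61e-05). *Il1r2* fell by 1.18 (standard error 0.21, adjusted p = 0.00204), from 17.7 to 32.6 CPM to 7.81 to 14.3 CPM. *Il1b* had 133, 38.5, 34.5 and 58.6 CPM at 3-dpf and 37.9, 19.3 and 37.6 CPM at 6-dpf, which overlapped. Its log2 fold change of -0.93 (standard error 0.39) had an adjusted p of 0.138, and *Il6*, with 21.6, 3.43, 2.21 and 6.22 CPM at 3-dpf and 3.73, 3.12 and 2.56 CPM at 6-dpf, had -1.31 (standard error 0.59, adjusted p = 0.163). Replicate 1 at 3-dpf held the highest *Il1b*, *Il6* and *Ptgs2* of its group. Without it, *Il1b* changed by -0.41 (standard error 0.25, adjusted p = 0.299) and *Il6* by -0.29 (standard error 0.29, adjusted p = 0.552), while *Ptgs2* went from 0.74 (standard error 0.32, adjusted p = 0.146) to 1.21 and passed (standard error 0.20, adjusted p = 0.00169). *Il6* also passed without replicate 3 of the libraries labelled P-Apex1KO at 3-dpf, at -1.75 (adjusted p = 0.0413). The other members had log2 fold changes of -0.17 (*Il1rn*), -0.34 (*Tnf*), -1.06 (*Acod1*), -0.15 (*Nos2*) and -1.14 (*Il10*), with adjusted p from 0.119 to 0.78. Without replicate 1 of 3-dpf these 5 were -0.36, -0.487, -1.109, -0.108 and -0.983 and none passed, while *Arg1* (-4.104, adjusted p = 8.31e-05) and *Il1r2* (-1.125, adjusted p = 0.00384) kept their calls.

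**Figure D2:**
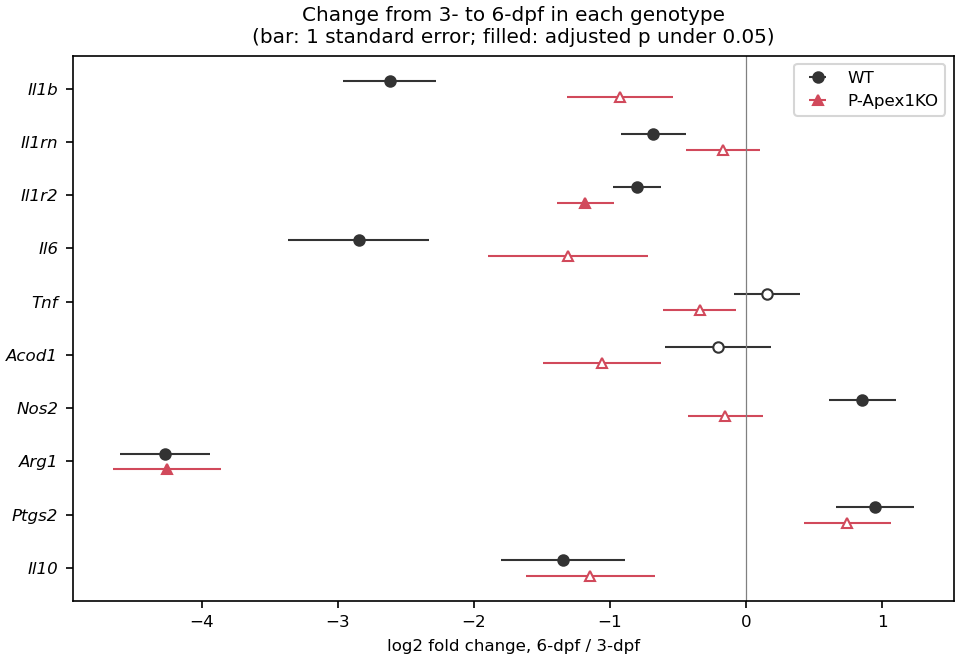
Log2 fold change from 3- to 6-dpf for each mediator, WT as dark circles and P-Apex1KO as red triangles; bars are 1 standard error and filled symbols have an adjusted p under 0.05. The *Arg1* symbols of both genotypes lie near -4.3, while those of *Il1b* lie at -2.62 in WT and -0.93 in P-Apex1KO.

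Whether the 2 genotypes differed in this change was tested directly. Over all 16 libraries of both days, 0 of 10 members passed by edgeR's quasi-likelihood test, where 1.3% of all genes did, with 2 at an unadjusted p under 0.05 (12.5% of all genes) and 1 (*Il1b*) by DESeq2, which called 3.88% of the genes given an adjusted p. The closest was *Il1b*, whose change was 1.69 higher on the log2 scale in P-Apex1KO (standard error 0.50, edgeR adjusted p = 0.147). *Nos2* differed by -1.005 (standard error 0.37, adjusted p = 0.251), *Il6* by 1.54 (standard error 0.75, adjusted p = 0.431) and *Arg1* by 0.02 (standard error 0.44, adjusted p = 0.996). Without replicate 1 of the libraries labelled P-Apex1KO at 3-dpf, *Il1b* (2.21, standard error 0.33, adjusted p = 0.0044) and *Il6* (2.58, standard error 0.39, adjusted p = 0.00304) passed, and 2 members were called. *Nos2* was -0.957 without it (adjusted p = 0.254).

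Among the genes around these mediators, the list of tumor necrosis factor receptors and NF-kB feedback genes held the most genes whose change differed between genotypes, of the 6 lists counted. Of its 16 genes, 12 were lower at 6- than at 3-dpf in WT and 0 higher, against 2 lower and 0 higher in P-Apex1KO, and the difference in change itself passed for 5, all toward a higher level in P-Apex1KO. They include *Traf1*, an adaptor of the receptors (1.07, standard error 0.22, adjusted p = 0.027), *Tnfaip3*, which encodes the inhibitor A20 (0.75, standard error 0.17, adjusted p = 0.0454), and *Birc3* (0.69, standard error 0.16, adjusted p = 0.0423). *Il10ra*, the ligand-binding chain of the interleukin-10 receptor, was the 1 gene of 10 tested in the interleukin-10 and interleukin-4 list to pass (1.08, standard error 0.16, adjusted p = 0.0036). In WT, 10 of 16 interleukin-1 family and inflammasome genes were lower at 6-dpf and 0 higher, among them the inflammasome sensor *Nlrp3* (-1.42, standard error 0.14, adjusted p = 3.88e-06) and the alarmin *Il33* (-1.28, standard error 0.15, adjusted p = 1.64e-05), and 7 were lower in P-Apex1KO. Of 12 interleukin-6 family genes, 7 were lower and 2 higher in WT, with *Il11* lower in both genotypes (-1.77, standard error 0.26, adjusted p = 0.000103 in WT; -2.25, standard error 0.31, adjusted p = 0.00037 in P-Apex1KO). Downstream of *Ptgs2*, the prostacyclin synthase gene *Ptgis* rose in WT (1.84, standard error 0.13, adjusted p = 1.28e-07) and its change differed between genotypes by -1.63 (standard error 0.19, adjusted p = 0.00112). *Ptger4*, a prostaglandin E2 receptor gene, differed by 0.91 the other way (standard error 0.18, adjusted p = 0.0243). Without replicate 1 of the libraries labelled P-Apex1KO at 3-dpf, a count added after the values were seen, the difference in change passed for 6 of the 16 tumor necrosis factor and NF-kB genes, with *Traf1* at 1.03 (adjusted p = 0.0298), *Tnfaip3* at 0.739 (adjusted p = 0.0499) and *Birc3* at 0.739 (adjusted p = 0.0266). *Il10ra* was then at 1.22 (adjusted p = 0.000196), *Ptgis* at -1.683 (adjusted p = 0.000535) and *Ptger4* at 0.952 (adjusted p = 0.0176). In the change from 3- to 6-dpf in P-Apex1KO, 6 interleukin-1 list genes were then lower, and *Il11* was at -2.28 (adjusted p = 0.00072).

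The genotypes were first compared at 3-dpf, the earliest day sampled. By edgeR's quasi-likelihood test 0 of 10 members passed, as did 0% of the 19866 genes tested, and 2 members passed by DESeq2, which called 0.525% of the genes given an adjusted p. At an unadjusted p under 0.05 there were 5 members (*Il1r2*, *Tnf*, *Acod1*, *Ptgs2* and *Il10*), against 6.12% of all genes, and 2 members did not overlap between genotypes, against 3.66%. *Acod1* had 1.77, 1.00, 1.77 and 2.23 CPM in WT and 5.11, 7.08, 3.57 and 6.54 CPM in the libraries labelled P-Apex1KO. All 4 of these lay above the WT libraries. *Acod1* had a log2 fold change of 1.55, or 2.92-fold (standard error 0.24, unadjusted p = 0.000134, edgeR adjusted p = 0.533). *Acod1* passed with no filter on low counts (adjusted p = 0.0391) and by DESeq2 (adjusted p = 3.27e-06). *Tnf* had 3.50, 3.73, 3.09 and 4.14 CPM in WT and 4.80, 9.36, 4.67 and 8.94 CPM in the libraries labelled P-Apex1KO, also without overlap (0.82, standard error 0.26, adjusted p = 0.768). *Il1r2*, at 17.3, 10.3, 13.5 and 17.9 CPM against 32.2, 26.4, 17.7 and 32.6 CPM, overlapped by 1 library (0.71, standard error 0.13, adjusted p = 0.768), and passed by DESeq2 (0.72, standard error 0.15, adjusted p = 0.00255).

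*Il1b*, *Il6* and *Ptgs2* had medians of 48.6, 4.83 and 51.0 CPM in the libraries labelled P-Apex1KO against 84.5, 10.5 and 120 CPM in WT, while replicate 1 lay at 133, 21.6 and 125 CPM. With it, *Il1b* differed by -0.62 (standard error 0.40, adjusted p = 0.873), *Il6* by -0.71 (standard error 0.71, adjusted p = 0.908) and *Ptgs2* by -0.93 (standard error 0.38, adjusted p = 0.797). Without it, the values were -1.06 (standard error 0.14, adjusted p = 0.0946), -1.53 (standard error 0.28, adjusted p = 0.281) and -1.35 (standard error 0.14, adjusted p = 0.0433), so that *Ptgs2* alone of the members passed. Replicate 3 moved these values the other way: without it *Il1b* was at -0.376 and *Il6* at -0.102, with adjusted p of 0.903 and 0.986. *Acod1*, *Tnf* and *Il1r2* were at 1.61, 0.95 and 0.67 without replicate 1, and *Il1rn*, *Nos2*, *Arg1* and *Il10* at 0.507, 0.048, 0.683 and 0.956. The remaining members had values of 0.35 (*Il1rn*), 0.09 (*Nos2*), 0.80 (*Arg1*) and 1.14 (*Il10*), with adjusted p from 0.785 to 0.965. *Arg1* spread widely in both groups, over 30.6 to 138 CPM in WT and 50.03 to 283 CPM in the libraries labelled P-Apex1KO.

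At 6-dpf, 3 members passed between genotypes, where 10.9% of 20260 genes did. *Il1b* and *Il6* were higher in P-Apex1KO and *Ptgs2* was lower. *Il1b* had 10.8, 18.2, 11.8, 17.4 and 12.0 CPM in the 5 WT mice and 37.9, 19.3 and 37.6 CPM in the 3 P-Apex1KO mice. The lowest P-Apex1KO library was just above the highest WT library, and the log2 fold change was 1.17, or 2.25-fold (standard error 0.24, adjusted p = 0.0178). *Il6* had 1.38, 1.07, 1.52, 1.48 and 1.53 CPM in WT and 3.73, 3.12 and 2.56 CPM in P-Apex1KO (1.26, or 2.39-fold, standard error 0.21, adjusted p = 0.00711). *Ptgs2* had 234, 218, 171, 298 and 259 CPM in WT and 121, 125 and 83.0 CPM in P-Apex1KO, and was lower by 1.09 on the log2 scale with no overlap (log2 fold change -1.09, standard error 0.20, adjusted p = 0.00941). The call of *Ptgs2* held in every alternative fit and without each library, with log2 fold changes from -1.28 to -0.90. That of *Il1b* was lost without P-Apex1KO replicate 1 (0.70, adjusted p = 0.171) and without P-Apex1KO replicate 3 (1.07, adjusted p = 0.0815). It was also lost with no filter on low counts (adjusted p = 0.0782) and with the replicate number in place of sex (adjusted p = 0.154). That of *Il6* was lost without P-Apex1KO replicate 1 (1.18, adjusted p = 0.0744), in 1 model of all 30 libraries (1.02, adjusted p = 0.162) and with the replicate number in place of sex (adjusted p = 0.0715).

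Of the other members at 6-dpf, *Il1rn* did not overlap, with 14.8 to 20.7 CPM in WT and 26.5, 22.1 and 47.4 CPM in P-Apex1KO, and missed the threshold (0.80, standard error 0.23, adjusted p = 0.0548). Non-overlap was found for 4 members, against 20.6% of all genes. *Arg1* (0.91, standard error 0.27, adjusted p = 0.0576) and *Nos2* (-0.92, standard error 0.33, adjusted p = 0.105) had opposite signs. DESeq2 called these 3 genes as well, 6 members in all, where it called 16.1% of the genes given an adjusted p. *Il10* had a log2 fold change of 1.07 (adjusted p = 0.172), *Acod1* 0.83 (adjusted p = 0.305), *Tnf* 0.41 (adjusted p = 0.364) and *Il1r2* 0.40 (adjusted p = 0.268). The median over the 10 members was 0.82, against 0.01 over all genes. Without P-Apex1KO replicate 2, the library with the lowest *Il1b* and *Il1rn* of its group, 6 members passed, with *Il1rn* at 1.00 (adjusted p = 0.0136), *Il1r2* at 0.63 (adjusted p = 0.0315) and *Nos2* at -1.24 (adjusted p = 0.0379).

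**Figure D3:**
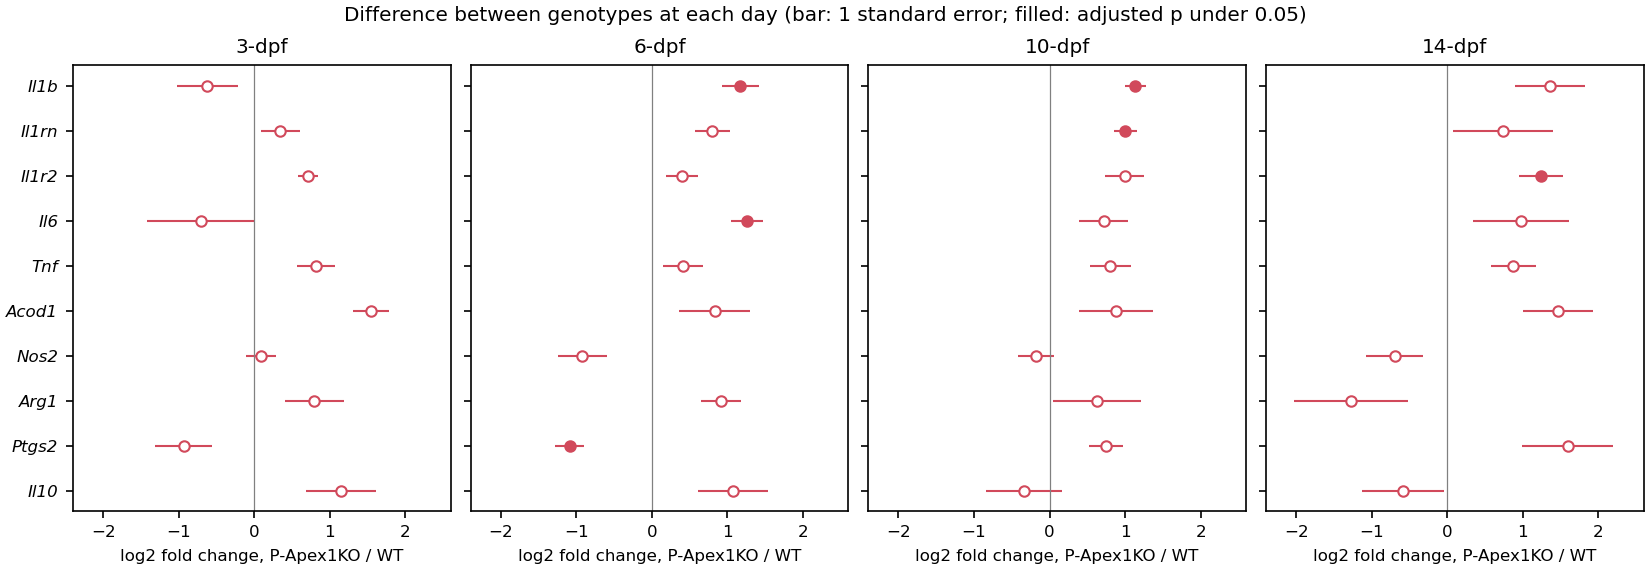
Log2 fold change of P-Apex1KO against WT for each mediator at 3-, 6-, 10- and 14-dpf; bars are 1 standard error and filled circles have an adjusted p under 0.05. *Ptgs2* lies at -1.09 at 6-dpf and at 0.74 at 10-dpf, while *Il1b* lies at -0.62 at 3-dpf and between 1.13 and 1.36 afterwards.

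At 10-dpf, 2 members passed, both higher in P-Apex1KO, where 6.46% of 18910 genes passed. *Il1b* had 7.12, 5.71, 12.1 and 9.91 CPM in WT and 14.5, 26.2 and 20.5 CPM in P-Apex1KO, without overlap (1.13, or 2.20-fold, standard error 0.14, adjusted p = 0.00868). *Il1rn* had 11.2, 9.64, 14.0 and 10.1 CPM in WT and 24.0, 23.1 and 20.4 CPM in P-Apex1KO, also without overlap (1.00, or 2.01-fold, standard error 0.15, adjusted p = 0.0142). Ligand and antagonist were thus both higher by about the same amount. *Tnf* was the third member without overlap, against 19.3% of all genes, at 1.33 to 1.82 CPM in WT and 3.79, 2.32 and 1.97 CPM in P-Apex1KO (0.81, standard error 0.27, adjusted p = 0.108). *Il1r2* (0.99, standard error 0.26, adjusted p = 0.056) and *Ptgs2* (0.74, standard error 0.22, adjusted p = 0.0992) missed the threshold and were called by DESeq2, which called 4 members and 11.9% of the genes given an adjusted p. *Il1r2* also passed in 1 model of all 30 libraries (adjusted p = 0.011), with library size alone (adjusted p = 0.0332) and with no filter on low counts (adjusted p = 0.00676). *Ptgs2* passed without WT replicate 4 (0.50, adjusted p = 0.0141) and *Il1r2* without WT replicate 3 (1.317, adjusted p = 0.012). Both calls were lost without P-Apex1KO replicate 1 (*Il1b* 1.08, adjusted p = 0.0708; *Il1rn* 0.85, adjusted p = 0.107), and that of *Il1rn* without WT replicate 1 (1.01, adjusted p = 0.0595) and in 1 model of all 30 libraries (0.986, adjusted p = 0.0538). *Il6* (0.72), *Acod1* (0.88), *Arg1* (0.63), *Nos2* (-0.17) and *Il10* (-0.34) had adjusted p from 0.219 to 0.736.

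*Ptgs2* was thus below WT at 6-dpf and above the WT mean at 10-dpf. It had 109, 99.6, 166 and 86.0 CPM in WT at 10-dpf and 143, 240 and 234 CPM in P-Apex1KO, so that 2 of the 3 P-Apex1KO libraries were above all WT libraries. The difference between the genotype effects of the 2 days was tested after these values had been seen, in a model of both days with sex. It was 1.89 on the log2 scale (standard error 0.33, adjusted p = 0.0101), and *Ptgs2* was the only member of 10 called, where 2.73% of 19946 genes were. Each of the 15 fits that left out 1 library kept the call, with values from 1.68 to 2.14, and it was lost with the replicate number in place of sex (1.90, standard error 0.41, adjusted p = 0.0874). The names of the libraries follow different styles at 3- and 6-dpf and at 10- and 14-dpf, so a library batch and the day cannot be told apart for levels across that gap, and this comparison uses the difference between genotypes within each day. *Il10* differed by -1.68 (standard error 0.77, adjusted p = 0.327) and *Il1r2* by 0.67 (standard error 0.41, adjusted p = 0.494).

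At 14-dpf, 1 member passed, where 11.3% of 20228 genes did. *Il1r2*, the decoy receptor, had 4.33, 6.78, 6.09 and 7.65 CPM in WT and 8.81, 12.5 and 8.80 CPM in P-Apex1KO, without overlap (1.24, or 2.36-fold, standard error 0.29, adjusted p = 0.0348). *Acod1* had 0.876, 0.603, 0.644 and 1.09 CPM in WT and 2.13, 2.74 and 2.28 CPM in P-Apex1KO (1.46, standard error 0.46, adjusted p = 0.0831), and *Tnf* 1.95, 2.04, 2.43 and 2.01 CPM against 3.83, 3.56 and 3.14 CPM (0.88, standard error 0.29, adjusted p = 0.0994). With *Il10*, which lay at 0.827 to 1.49 CPM in WT and at 0.289 to 0.666 CPM in P-Apex1KO (-0.59, standard error 0.54, adjusted p = 0.524), 4 members did not overlap, against 42% of all genes. All P-Apex1KO mice were female, so a fit with a sex term sets them against the single WT female, replicate 1. Its cartilage markers summed to 3568 CPM, against 8279 to 10162 CPM in the WT males, and its skeletal muscle markers to 4117 CPM, against 1185 to 1422 CPM. *Ptgs2* had 24.3 CPM in that mouse, 69.9 to 117 CPM in the WT males and 109, 35.6 and 71.9 CPM in P-Apex1KO. It differed by 1.59 (standard error 0.60, adjusted p = 0.143) with the sex term and -0.01 (adjusted p = 0.99) without it, and that of *Il6* went from 0.98 (standard error 0.64, adjusted p = 0.362) to -0.11 (adjusted p = 0.87). Without the sex term *Acod1* (1.60, adjusted p = 0.00249) and *Tnf* (0.78, adjusted p = 0.00902) passed. DESeq2 called 3 members (*Il1b*, *Il1r2* and *Ptgs2*), where it called 17% of the genes given an adjusted p. The call of *Il1r2* was lost without WT replicate 2 (adjusted p = 0.08), 3 (0.066) or 4 (0.0669). Without P-Apex1KO replicate 2, which had 54.1 CPM of *Il1rn* against 17.2 and 18.4 CPM in the other 2, *Il1b* (0.94, adjusted p = 0.0173) and *Ptgs2* (1.91, adjusted p = 0.0483) passed too.

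Of the other members at 14-dpf, *Il1b* had 8.71, 14.0, 12.6 and 17.1 CPM in WT and 17.4, 32.9 and 15.5 CPM in P-Apex1KO, which overlapped (1.36, standard error 0.46, adjusted p = 0.107). *Il1rn* had 0.74 (standard error 0.66, adjusted p = 0.512), *Nos2* -0.70 (standard error 0.38, adjusted p = 0.272) and *Arg1* -1.27 (standard error 0.75, adjusted p = 0.315). Between 10- and 14-dpf in WT, 1 member passed, where 11.1% of 19705 genes did. *Il10* rose from 0.320 to 0.540 CPM to 0.827 to 1.49 CPM (1.46, standard error 0.42, adjusted p = 0.0388), on 7 to 32 counts per library, and lost its call in 8 of 14 fits that left out 1 library: without any of the 4 WT replicates of 10-dpf (adjusted p from 0.057 to 0.0959), WT 14-dpf replicates 2, 3 or 4 (0.103, 0.0701 and 0.0768) or P-Apex1KO 10-dpf replicate 2 (0.0506). DESeq2 called *Il10* and *Il1r2* in this comparison, and 14.5% of the genes given an adjusted p. In P-Apex1KO 0 of 10 members passed by edgeR, where 0.259% of all genes did, with 3 at an unadjusted p under 0.05 (14.3% of all genes) and 1 (*Il1r2*) by DESeq2, which called 3.73% of the genes given an adjusted p. There *Il10* had 0.63 (standard error 0.55, adjusted p = 0.651). The genotype difference in this change passed for 0 of 10 members, where 0.436% of all genes did, with 0 at an unadjusted p under 0.05 (13.1% of all genes) and 0 by DESeq2 (2.81% of the genes given an adjusted p).

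Around the members, the same lists were counted between genotypes, where 10.9% of all genes passed at 6-dpf, 6.46% at 10-dpf and 11.3% at 14-dpf. The calls of 14-dpf, those of the cell type markers below included, set P-Apex1KO against the single WT female. At 6-dpf, 6 of 16 tumor necrosis factor and NF-kB genes were higher in P-Apex1KO and 0 lower, led by *Traf1* (0.86, standard error 0.17, adjusted p = 0.012), *Tnfaip3* (0.66, standard error 0.11, adjusted p = 0.00711) and the receptor gene *Tnfrsf1b* (0.59, standard error 0.09, adjusted p = 0.00441). At 10-dpf 0 of 15 tested passed, and at 14-dpf 0 were higher and 1 lower, the inhibitor *Nfkbia* (-0.71, standard error 0.17, adjusted p = 0.0364). *Traf1*, *Nfkbia* and *Tnfaip3* were also the 3 genes of this list whose genotype difference changed from 6- to 10-dpf, by -1.19, -0.85 and -0.67 (adjusted p = 0.0121, 0.00512 and 0.0282). The inflammasome sensor *Nlrp3*, which leads to the cleavage of interleukin-1 beta, was higher in P-Apex1KO at 6-dpf (0.97, standard error 0.19, adjusted p = 0.012), 10-dpf (0.91, standard error 0.19, adjusted p = 0.0294) and 14-dpf (1.13, standard error 0.30, adjusted p = 0.0491), within an interleukin-1 list of 16 genes of which 3, 2 and 4 were higher and 0 lower. The interleukin-18 receptor gene *Il18r1* was higher on the same 3 days (0.78, 1.10 and 1.48, adjusted p = 0.0344, 0.029 and 0.0112).

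Of 12 interleukin-6 family genes, 2 were higher at 6-dpf, the receptor gene *Il6ra* (0.55, standard error 0.10, adjusted p = 0.00816) and the ligand *Lif* (0.81, standard error 0.18, adjusted p = 0.0225). At 10-dpf 1 was higher and 1 lower, and at 14-dpf 0 were higher and 2 lower. *Lifr*, the receptor gene of *Lif*, was lower in P-Apex1KO at 10-dpf (-1.07, standard error 0.19, adjusted p = 0.0215) and 14-dpf (-1.88, standard error 0.17, adjusted p = 0.0011). *Lif* itself, higher at 6-dpf, was lower in P-Apex1KO at 14-dpf (-1.26, standard error 0.22, adjusted p = 0.0115). *Il10ra* was higher at 6-dpf (1.17, standard error 0.09, adjusted p = 0.000389) and 10-dpf (0.89, standard error 0.16, adjusted p = 0.0242), within a list of which 4 of 10 tested genes were higher at 6-dpf, 2 of 9 at 10-dpf and 2 of 10 at 14-dpf, with 0 lower on any day. That list shares *Mrc1* with the macrophage markers. In the prostanoid and leukotriene list of 15 tested genes, 2 were higher and 3 lower at 6-dpf, 4 and 1 at 10-dpf, and 5 and 1 at 14-dpf. *Ptgis* was lower at 6-dpf (-1.57, standard error 0.14, adjusted p = 0.000576), *Ptger4* higher at 6-dpf (0.88, standard error 0.13, adjusted p = 0.00404), and the leukotriene genes *Alox5* and *Alox5ap* higher at 10-dpf (0.89 and 0.88, adjusted p = 0.0482 and 0.0431) and 14-dpf (1.13 and 0.96, adjusted p = 0.00658 and 0.00996). Of 12 arginine and nitric oxide genes, 0 were higher and 2 lower at 6-dpf, among them the arginine transporter gene *Slc7a1* (-0.58, standard error 0.09, adjusted p = 0.0041), 2 higher and 0 lower at 10-dpf, and 3 and 1 at 14-dpf. Within this list *Nos1* was higher at 10-dpf (1.17, standard error 0.21, adjusted p = 0.0279) and 14-dpf (1.945, standard error 0.25, adjusted p = 0.00348). *Ass1*, which recycles citrulline to arginine, was also higher at 10-dpf (0.92, standard error 0.17, adjusted p = 0.0244) and 14-dpf (1.21, standard error 0.25, adjusted p = 0.0201). All 6 lists had 0 genes called at 3-dpf.

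Ratios within a library show the balance between members independently of library scaling. The ratio of *Il1rn* to *Il1b*, antagonist to ligand per kilobase, was 0.128 to 0.198 in WT at 3-dpf and 0.458 to 0.903 at 6-dpf, without overlap. In the libraries labelled P-Apex1KO at 3-dpf it was 0.0765 in replicate 1 and 0.421 to 0.488 in the other 3, so that these 3 lay above all WT libraries and replicate 1 below them. From 6-dpf on the genotypes overlapped, at 0.328 to 0.592 in P-Apex1KO at 6-dpf. The ratio of *Arg1* to *Nos2* was 13.3 to 42.3 in WT at 3-dpf, and 13.7 to 98.8 in the libraries labelled P-Apex1KO. At 6-dpf it was 0.352 to 1.17 in WT and 1.72 to 4.04 in P-Apex1KO, without overlap, and at 10-dpf (0.0794 to 0.392 against 0.0965 to 0.857) and 14-dpf (0.117 to 0.479 against 0.0882 to 0.681) the genotypes overlapped. These ratios were chosen with the levels known and are given without a test.

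**Figure D4:**
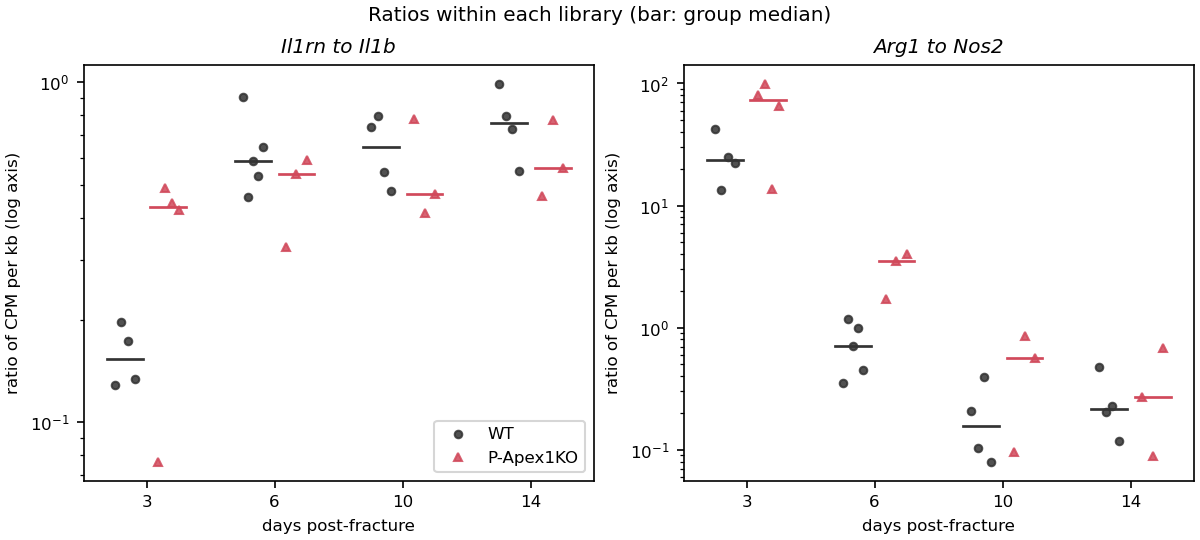
Ratio of *Il1rn* to *Il1b* (left) and of *Arg1* to *Nos2* (right), each per kilobase and on a log axis, against days post-fracture, with 1 point per library, WT as dark circles, P-Apex1KO as red triangles and bars at group medians; sideways offsets have no meaning. The *Arg1* to *Nos2* libraries of P-Apex1KO lie above all WT libraries at 6-dpf, and 1 library labelled P-Apex1KO has the lowest *Il1rn* to *Il1b* ratio of all, 0.0765.

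Several of these mediators come from leukocytes, and in bulk callus fewer cells of a type and less RNA per cell cannot be told apart. The 14 markers of macrophages, which include *Adgre1*, *Csf1r* and the C1q genes, summed to 3686 to 4728 CPM in WT and 3902 to 5559 CPM in the libraries labelled P-Apex1KO at 3-dpf, and to 1874 to 2329 against 3123 to 3562 CPM at 6-dpf, 1271 to 2047 against 2069 to 2585 CPM at 10-dpf and 2026 to 2090 against 2466 to 2751 CPM at 14-dpf. The sums of P-Apex1KO were above all WT libraries on the last 3 days, and 10, 8 and 8 of the 14 markers were called higher there, with 0, 1 and 2 lower. From 3- to 6-dpf, 13 of the 14 were lower in WT and 7 in P-Apex1KO, or 6 without its replicate 1 of 3-dpf. The part of this in the values of *Il1b*, *Il6*, *Il1rn* and *Il1r2* was not tested. Members with the opposite sign on those days were *Ptgs2* (-1.09) and *Nos2* (-0.92) at 6-dpf, *Nos2* (-0.17) and *Il10* (-0.34) at 10-dpf, and *Nos2* (-0.70), *Arg1* (-1.27) and *Il10* (-0.59) at 14-dpf.

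The 14 neutrophil markers, *S100a8*, *Ly6g* and *Cxcr2* among them, overlapped between genotypes at 3-dpf, at 6-dpf (5079 to 6488 CPM in WT, 4796 to 7019 in P-Apex1KO) and at 10-dpf (4271 to 5157 against 3244 to 6167 CPM). At 14-dpf their sum was 6379 to 7314 CPM in WT and 3434 to 4561 CPM in P-Apex1KO, while 9 of 13 tested markers were called higher in P-Apex1KO and 1 lower. The lower marker was *Mmp9*, which osteoclasts express as well (-2.05, adjusted p = 0.0173 at 10-dpf, and -2.60, adjusted p = 0.00308 at 14-dpf). At 10-dpf *Mmp9* was the 1 marker called of 13 tested, and 0 were called higher. The other 13 markers, summed after these values were seen, gave 1346 to 2893 CPM in WT and 2895 to 5442 CPM in P-Apex1KO at 10-dpf, and 1389 to 2127 against 2901 to 3734 CPM at 14-dpf, without overlap but narrowly so at 10-dpf. At 3- and 6-dpf these sums overlapped. *Il1b* and *Il1rn* were higher in P-Apex1KO at 10-dpf and *Il1r2* at 14-dpf, and the part of these markers in them was not tested. From 3- to 6-dpf 2 of the 14 were lower in WT and 0 higher, with summed levels of 3885 to 5999 and 5079 to 6488 CPM. None of the markers of either list was at 0 in any group. Markers of T and NK cells were higher in P-Apex1KO at 6-dpf (6 of 10, with 0 lower), and skeletal muscle markers at 6-dpf (9 of 10, with 0 lower), with summed levels of 3046 to 5463 CPM in WT and 7103 to 16260 CPM in P-Apex1KO. Cartilage markers summed to 30490 to 55020 CPM in WT and 2502 to 4198 CPM in P-Apex1KO at 6-dpf, and to 25460 to 52910 against 16990 to 25830 CPM at 10-dpf, which overlapped. The difference passed for all 7 cartilage markers at 6-dpf, lower, and for 0 at 10-dpf. Osteoblast markers were lower in P-Apex1KO at 6-dpf (6 of 7) and 10-dpf (5 of 7). Of the other lists at 6-dpf, 2 of 7 B cell and 2 of 7 mast cell markers were higher, and 0 of 6 mesenchyme and 0 of 6 endothelial markers passed by edgeR. These sums stand beside the values of *Ptgs2* on the same days, and their part in it was not tested.

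**Figure D5:**
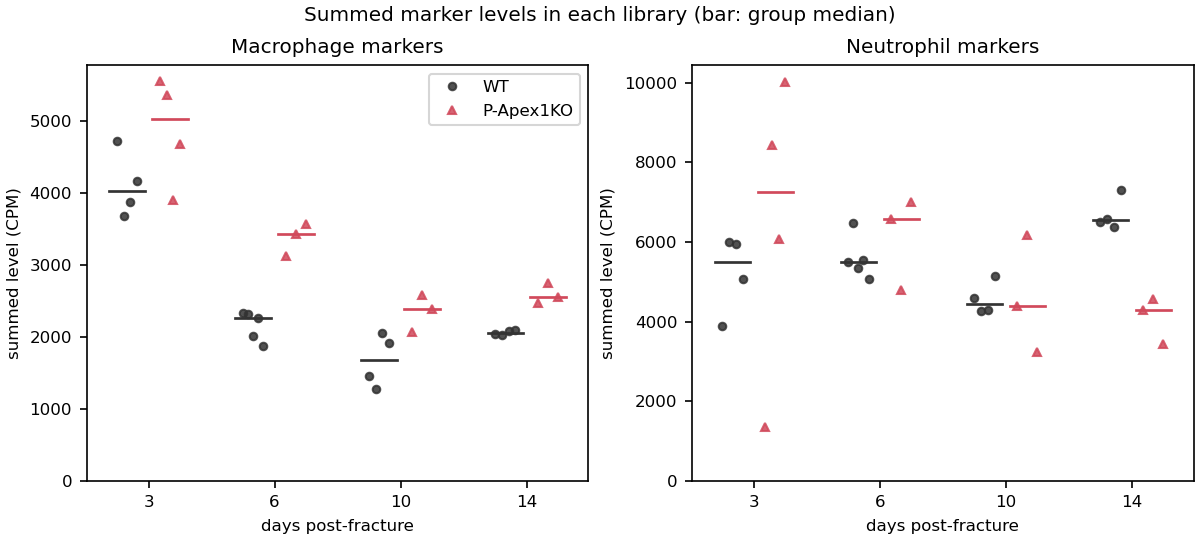
Summed level (CPM) of 14 macrophage markers (left) and 14 neutrophil markers (right) in each library against days post-fracture, WT as dark circles and P-Apex1KO as red triangles, with bars at group medians; sideways offsets have no meaning. The macrophage sums of P-Apex1KO lie above WT at 6-, 10- and 14-dpf, and replicate 1 of the libraries labelled P-Apex1KO at 3-dpf has the lowest neutrophil sum, 1356 CPM. The neutrophil sums include *Mmp9*, without which those of P-Apex1KO lie above WT at 10-dpf, narrowly, and at 14-dpf.

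Over the 30 libraries, which share the same days and genotypes, the rank correlation between members was highest for *Il1b* with *Il1r2* (Spearman's rho 0.90), followed by *Il1b* with *Il6* (0.84) and *Il1r2* with *Acod1* (0.82). It was lowest for *Ptgs2* with *Il10* (-0.58). Of 13796 protein-coding genes averaging 1 CPM or more, those closest to *Il1b* were *Ptger2*, a prostaglandin E2 receptor gene (0.94), and *Ms4a6c* (0.93). The closest to *Il1r2* were *Clec4d* (0.95) and *Trem1* (0.94), to *Il1rn* *Selplg* (0.91) and *Prkcd* (0.89), and to *Acod1* the Fc receptor gene *Fcgr4* (0.86) and *H2-K1* (0.83). *Il6* was closest to *Rap2b* (0.90) and the chemokine gene *Ccl2* (0.90), and *Arg1* to *Dtnbp1* (0.98) and the urokinase gene *Plau* (0.95). *Ptgs2* was closest to *Uxs1* (0.86) and *Ccn1* (0.84), and *Nos2* to *Zmiz1* (0.84) and *Kctd17* (0.83). The closest to *Tnf* were *Gpr146* (0.86) and *Grina* (0.85), and to *Il10* *Stx7* (0.80) and *Plekhb2* (0.80). These correlations run over groups of different days and describe shared time courses, with no test.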

How the data were processed

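Total RNA of tissue labelled fracture callus, depleted of rRNA and beta globin RNA, was made into stranded libraries. According to the methods and the submitters' processing notes, the authors demultiplexed reads with bcl2fastq 2.20, aligned them with STAR 2.7.0d to mm39 and used featureCounts for the uniquely mapped reads of each Ensembl gene, with the reverse strand setting. The values the authors deposited are raw whole-number counts without normalization. The sources do not say whether the replicates, which are taken as separate mice, were prepared in batches.

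Symbols, positions and exon lengths came from GENCODE M39 on GRCm39, which holds 54749 of the 55416 gene IDs. The 667 others stayed in the tests. Printed CPM use TMM factors over all 30 libraries, so a level may differ slightly from the scale of a single fit. Genotypes were compared per day with edgeR 4.0.16 (R 4.3.3): low counts were removed by filterByExpr, TMM scaling was used, and terms for genotype and sex were fitted (robust quasi-likelihood F tests, Benjamini-Hochberg adjustment over all genes tested, threshold 0.05). Changes between days and their difference between genotypes came from models of 2 days with 4 groups and sex. A standard error is the absolute log2 fold change divided by √F. No overlap means that all libraries of 1 group lie beyond all of the other in CPM. Depth and 3 to 5 mice per group set the precision. Promoter matches and figures were made with Python 3.11.15 and matplotlib 3.10.9.

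The members, gene lists and tests were chosen with earlier results of these data known. Named genes were the 10 members, *Apex1*, up to 3 called genes per list and comparison with the largest change and a mean of at least 1 CPM, the 2 nearest genes per member (log2 CPM plus 0.5), and defining markers. The comparison of 10- with 6-dpf, the neutrophil sum without *Mmp9* and the lists without 1 library were added after the values were seen. DESeq2 shares are over genes with an adjusted p. Same-numbered mice of the 2 genotypes had positive correlations of deviations at 3-dpf (0.117 to 0.484 in all 4 pairs), highest for replicate 1, whose P-Apex1KO library stood apart. Mice of different numbers were not compared, so these values cannot say whether the numbers pair the mice. The labels name no shared litter or day. At 6-, 10- and 14-dpf the correlations ran from -0.329 to 0.256. Alternatives were DESeq2 1.42.0, no sex term, other size factors, other filters, 1 model of all 30 libraries, a replicate block replacing sex, and each mouse left out.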

Additional observations from a re-analysis of the deposited data

Results flagged for a closer look

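Of 50 combinations of a member and a group of 4 or 5 libraries examined for a library far from the rest, 1 was flagged, where chance flags about 1 in 20. It was *Ptgs2* in replicate 1 of the libraries labelled P-Apex1KO at 3-dpf, with 125 CPM against 41.0, 52.0 and 49.9 CPM in the other 3. The gap to the next library was 0.869 of the range of the group. The same library had 1356 CPM over the neutrophil markers.

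The genotype difference of *Ptgs2* differed between 6- and 10-dpf by 1.89 on the log2 scale (standard error 0.33, edgeR adjusted p = 0.0101), with 3 of 3 P-Apex1KO libraries below the WT range at 6-dpf and 2 of 3 above it at 10-dpf. The comparison was chosen after the values had been seen.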

How the results depend on the processing

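Of 1269 alternative values for single members, 1149 kept direction and side of the threshold, 57 lost and 50 gained a call, and 13 changed sign. The number of members called between genotypes at 3-dpf (0) was 1 with no filter and 2 with DESeq2, and 0 to 1 with each mouse left out. At 6-dpf (3) it was 2 to 6, with 2 under the replicate block, 5 with library size alone and 6 with DESeq2, and 1 to 6 with each mouse left out (1 without P-Apex1KO replicate 1, 6 without P-Apex1KO replicate 2). At 10-dpf (2) it was 4 with DESeq2 and 0 to 3 with each mouse left out (0 without P-Apex1KO replicate 1, 1 without WT replicate 1). At 14-dpf (1) it was 4 with all 30 libraries, 3 without the sex term, 2 with library size alone, 3 with the replicate block, 3 with DESeq2 and 0 in females only, and 0 to 3 with each mouse left out (0 without WT replicates 2, 3 or 4, 3 without P-Apex1KO replicate 2). Without WT 14-dpf replicate 1 the genotype and sex could not be fitted together, so that fit was not made. From 3- to 6-dpf in WT (8) it was 5 with the replicate block and 5 to 8 with each mouse left out, and its difference between genotypes (0) was 1 with all 30 libraries, 1 with DESeq2 and 0 to 2 with each mouse left out. In P-Apex1KO (2) it was 2 to 3, with *Il1b* added by DESeq2. From 10- to 14-dpf in WT (1) it was 0 with at least 10 counts in every library, 2 with no filter, 0 with the replicate block, 2 with DESeq2 and 0 to 2 with each mouse left out. In P-Apex1KO (0) it was 1 with no filter and 1 with DESeq2, and the genotype difference (0) was 0 to 1 with each mouse left out. From 6- to 10-dpf the genotype difference (1) was 0 with the replicate block.

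Signs changed for *Nos2* at 3-dpf (-0.16 to 0.20 with each mouse left out) and 10-dpf (-0.419 to 0.034), *Il1rn* at 14-dpf (-0.02 to 1.03), and from 3- to 6-dpf for *Acod1* in WT (-0.548 to 0.011) and *Il1rn* (-0.581 to 0.061) and *Nos2* (-0.494 to 0.042) in P-Apex1KO. At 14-dpf *Il6* was -0.111 without the sex term and -0.027 with the replicate block, *Ptgs2* was -0.012 without the sex term and *Arg1* was 0.66 with all 30 libraries. *Tnf* from 3- to 6-dpf in WT was -0.075 with library size alone. The cause was not tested. Whether the replicate numbers pair the mice was not settled (correlations -0.329 to 0.256 at 6-, 10- and 14-dpf), and at 3-dpf the replicate block left 0 members called. *Ptgs2* at 6-dpf and *Il1b*, *Il6*, *Il1r2* and *Arg1* from 3- to 6-dpf in WT kept their calls in every alternative. Groups of 3 to 5 mice, and under 60 counts for *Il10*, limit what could be shown.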
